A study of Mus musculus with 4 samples.

Results

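Foxo1, Foxo3, Foxo4, Klf2, S1pr1, Tob1, Btg1 and Btg2 are 8 genes that are associated with resting lymphocytes and with their movement out of the thymus and through lymphoid organs. They were taken by symbol from a table of 24391 genes, and all 8 were listed in it. Their RNA was measured by RNA-Seq in Beko cells, a mouse progenitor T-cell line in which Notch signaling is constitutively active. The comparison asked what happened to these genes when a block of Notch was lifted: 2 libraries came from cells kept for 48 h in DAPT, a γ-secretase inhibitor (GSI) that prevents release of the active Notch intracellular domain, and 2 came from cells given the same 48 h of GSI, washed, and cultured without it for a further 24 h (washout). All 4 libraries therefore had the GSI exposure, cells never given GSI were not analysed here, and the labels name the dose as 10 mg/ml whereas the methods name the same figure in μg/ml. The study states that the inhibitor was renewed once during the treatment. Washed cells also spent more time in culture than the GSI cells and went through an extra wash, and the return of Notch activity cannot be told apart from these differences. The experiment used 1 cell line, and the labels do not say whether replicates came from separate cultures, so p-values measure the spread between these libraries, which may be technical.

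Foxo proteins are forkhead transcription factors that growth factor signaling through PI3K and Akt keeps phosphorylated, bound to 14-3-3 proteins and out of the nucleus. When that signal is low, Foxo proteins enter the nucleus and activate genes for cell cycle arrest, survival, recombination and homing, and in T cells they also maintain Klf2, a Kruppel-like factor that activates S1pr1, the receptor through which T cells leave the thymus along a gradient of sphingosine 1-phosphate. Tob1, Btg1 and Btg2 belong to the BTG/TOB family of antiproliferative proteins, which bring the CCR4-NOT deadenylase to messenger RNAs and shorten their poly(A) tails. Akt control of Foxo acts on the protein and its location, so RNA levels do not measure Foxo activity.

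Of the 8 genes, 6 had less RNA after washout and none had more. Btg2 fell 5.18-fold, Tob1 2.70-fold, Foxo3 2.31-fold, Btg1 1.98-fold and Foxo1 1.69-fold. The scarce Klf2 fell 13.1-fold in the fit. Foxo4 was between 46.3 and 55.5 CPM (a normalised read count) in every library and was not called, and S1pr1 was at or near 0 throughout.

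CPM is the usual read count of a gene relative to the total of its library, here after TMM scaling. TMM rescales each library by a single factor, on the assumption that most genes do not change. Genes were called at an adjusted p below 0.05 in edgeR's quasi-likelihood test over the 12266 genes that passed its filter on low counts, and a stricter call, the study's own criterion, also asked for a log2 fold change beyond 1 in either direction. Of the 8 genes 7 were tested and 6 of these were lower at the adjusted p, where 25.4% of all genes tested were lower. The share of all genes that were higher was 27.0%. With scaling to total counts 4250 genes were lower and 2315 higher, against 3120 and 3315 here, and 7 of the 7 genes were lower. Past both thresholds 4 of the 7 were lower, against 11.7% of all genes (7.74% were higher). The median log2 fold change of the 7 was -1.21, against -0.0096 over all genes tested. For 6 of the 7 the GSI libraries did not overlap the washout libraries, with both washout values lower, a pattern that 39.1% of all genes had (38.2% had the opposite one).

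**Figure D1:**
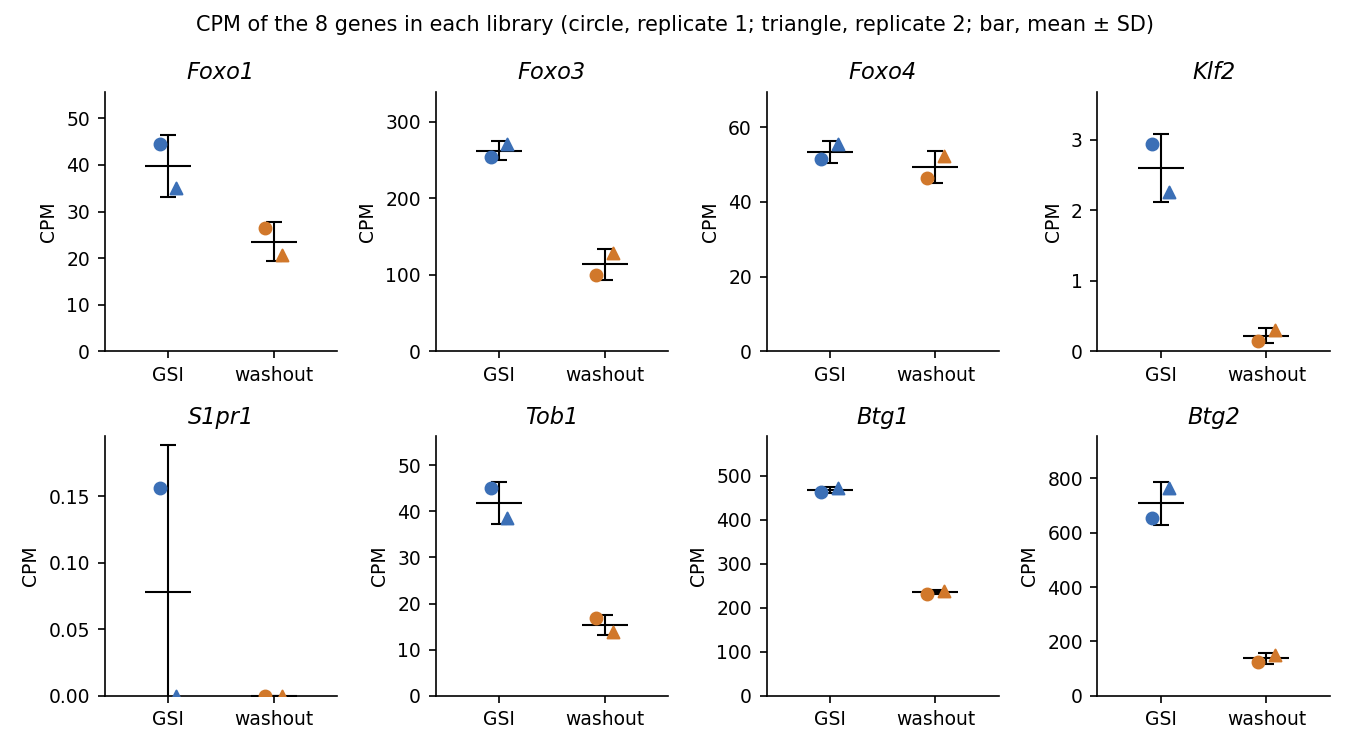
Level of each of the 8 genes in CPM in the 2 GSI and the 2 washout libraries, in 1 panel per gene with its own linear axis from 0, with a circle for replicate 1, a triangle for replicate 2 and a bar for the mean ± SD. Both washout points lie below both GSI points for Foxo1, Foxo3, Klf2, Tob1, Btg1 and Btg2, the points overlap for Foxo4 (46.3 to 55.5 CPM), and S1pr1 had counts in 1 library only.

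Total counts were 29671401 and 13716199 in the GSI libraries and 36364200 and 14451995 in the washout libraries, so replicate 1 was the deeper of each pair. Log2 CPM correlated across genes at 0.99 and 0.988 within the groups and at 0.935 to 0.947 between them. A count of 0 allows up to 3 counts, which is between 0.0881 and 0.223 CPM depending on the library (counting error only). T-lineage markers were present, with 13 of 13 tested and a summed level of 8612 and 8763 CPM in GSI and 7595 and 7257 CPM after washout. Of the 13, 5 were lower, among them Dntt and Cd2, and 2 were higher, Ptcra and Cd3g. Of 6 mast cell markers 2 were tested, and both were lower after washout (Cpa3 and Kit, summed level 274.5 and 166.7 against 45.7 and 30.5 CPM), while Mcpt4, Tpsb2, Fcer1a and Cma1 were at 0. Of 6 myeloid markers only Itgam was tested, and it was lower (summed level 49.2 and 38.3 against 5.49 and 4.99 CPM), with Lyz2 at 0. Of 7 markers listed as stromal and epithelial 5 were tested and 3 were lower, Col1a1, Pdgfrb and Pecam1, with Krt8 and Krt18 at 0. The summed level of the 7 was 269.4 and 219.8 CPM in GSI against 95.3 and 101.6 CPM after washout. Most of it was Pecam1, at 221.2 and 173.8 against 67.1 and 64.4 CPM. Col1a1 was at most 1.23 CPM. B-lineage markers summed to at most 0.563 CPM and erythroid markers to at most 1.58 CPM in any library, with Ms4a1, Pax5, Hbb-b1 and Hba-a1 at 0. The called genes of the mast cell, myeloid and stromal lists were lower after washout, as were the 6 genes, and their part in the results was not tested. Whether the progenitor T cells themselves made these RNAs was not tested either. In bulk RNA, fewer cells of a type and less RNA per cell cannot be told apart.

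The promoters of Btg1 and Btg2 are shown because these genes carried the most RNA per length and a short match to a transcription factor motif was found in each. The sequences are the 250 bases before the gene's start in RefSeq on GRCm38.p6, a later build than the mm9 of the counts, and read 5′ to 3′ along the gene's strand with the matched letters in capitals. Klf2 is added as the gene with the largest change.
Btg1, chr10:96616751-96617000, plus strand: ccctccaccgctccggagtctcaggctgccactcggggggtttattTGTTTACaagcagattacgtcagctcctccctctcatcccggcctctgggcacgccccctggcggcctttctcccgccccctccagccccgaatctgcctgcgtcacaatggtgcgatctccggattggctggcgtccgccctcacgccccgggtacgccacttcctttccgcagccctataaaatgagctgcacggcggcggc
Btg2, chr1:134079156-134079405, minus strand: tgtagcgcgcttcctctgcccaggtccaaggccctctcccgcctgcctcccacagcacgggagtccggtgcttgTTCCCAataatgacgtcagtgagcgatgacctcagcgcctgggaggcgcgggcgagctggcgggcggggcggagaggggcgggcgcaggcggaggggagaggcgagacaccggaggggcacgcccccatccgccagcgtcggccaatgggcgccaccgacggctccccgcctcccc
Klf2, chr8:72318812-72319061, plus strand: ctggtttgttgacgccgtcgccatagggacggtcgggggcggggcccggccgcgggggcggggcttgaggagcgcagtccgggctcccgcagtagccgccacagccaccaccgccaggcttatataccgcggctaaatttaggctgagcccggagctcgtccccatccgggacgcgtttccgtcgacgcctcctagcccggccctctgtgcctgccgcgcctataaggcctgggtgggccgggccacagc

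In Btg1 the capitals mark TGTTTAC, one of a pair of forkhead motifs searched, 204 to 198 bases before the start. In Btg2 they mark the core motif of RBPJ, the DNA-binding factor of the Notch pathway, TGGGAA, read on the opposite strand at 176 to 171 bases before the start. Both strands were searched for these motifs, for the forkhead motif TGTTTAT and for the Kruppel-like motif CACACCC, and no searched motif overlapped another in the matched windows. No other match was found in the windows of Btg1, Btg2, Klf2, Foxo1, Foxo3 and Tob1, the 6 of the 8 genes with an entry in the promoter table. Of all 32851 promoters of this length, 21.6% held TGGGAA, 7.10% held either forkhead motif (3.17% TGTTTAC and 4.16% TGTTTAT) and 6.93% held CACACCC. A match of a few letters is a description of the sequence and not a binding site. The 6 windows shared a GC content above the median of all promoters, 52.4%. It ranged from 56.0% in Foxo1 over 65.2% in Btg1, 71.2% in Klf2, 73.2% in Btg2 and 73.6% in Tob1 to 76.4% in Foxo3.

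Among the transcription factors, Foxo3 had the most RNA. Foxo3, which in lymphocytes is known for its proapoptotic target genes, lies on chromosome 10 from 41901647 to 41996561 on the minus strand (mm9). It had 8115 and 3953 counts in GSI and 3387 and 1724 after washout, which is 253.6 and 270.9 against 99.5 and 128.3 CPM. Both washout libraries were below both GSI libraries by a gap much wider than the distance between replicates. The log2 fold change was -1.21 (SE 0.141, 95% interval -1.55 to -0.86, adjusted p = 0.00107 in edgeR). Corrected for the trends with GC content and length, it was -0.99, just short of the stricter threshold.

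Foxo1 is the family member known to be needed for Il7r and Klf2 expression in T cells. It lies on chromosome 3 from 52072259 to 52154031 on the plus strand (mm9). It had 1424 and 512 counts in GSI and 900 and 277 after washout, or 44.5 and 35.1 against 26.4 and 20.6 CPM. The groups did not overlap, but replicate 1 exceeded replicate 2 by 1.27-fold in GSI and 1.28-fold after washout, so that the ratio of the lower GSI to the higher washout library was the smallest of the 6 genes that fell. Its log2 fold change was -0.75 (SE 0.174, 95% interval -1.17 to -0.33, edgeR adjusted p = 0.0126). Without GSI replicate 1 it was -0.57 and was no longer called. Leaving that library out also gave the fewest calls over all genes, and why Foxo1 lost its call was not tested. An exon of RP24-337A16.1 overlaps Foxo1 on the other strand, and the strand setting of the counting is not given in the sources used here, so reads from it cannot be told apart.

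Foxo4, an X-linked member with a similar binding domain, lies on chromosome X from 98449867 to 98456212 on the plus strand (mm9). It was at 51.4 and 55.5 CPM in GSI and at 46.3 and 52.3 CPM after washout, from 1643, 810, 1575 and 703 counts. The groups overlapped, since washout replicate 2 lay above GSI replicate 1. The fit gave a log2 fold change of -0.12 (SE 0.109, 95% interval -0.38 to 0.15, edgeR adjusted p = 0.396). The interval leaves room for a decrease of 0.38 on the log2 scale. Scaled to total counts alone, which moved the median of all genes by -0.20, Foxo4 was at -0.32 and was called (edgeR adjusted p = 0.0444).

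With CPM divided by the exon length of the annotation in kilobases (RPKM), the level of Foxo3 was 36.4, of Foxo4 15.3 and of Foxo1 7.17 in GSI, as means of 2 libraries. After washout the means were 15.8, 14.1 and 4.24 RPKM. The order thus stayed Foxo3, Foxo4, Foxo1, but Foxo3 (13.8 and 17.8) and Foxo4 (13.3 and 15.0) no longer differed beyond their spread. The ratio of Foxo3 to Foxo4 RPKM was 2.39 and 2.36 in the GSI libraries and 1.04 and 1.19 in the washout libraries. This ratio is taken within each library and does not depend on how libraries are scaled to each other. With 2 libraries against 2 an exact permutation test cannot give a two-sided p below 0.333, the value for this ratio. The ratio of Foxo1 to Foxo4 was 0.544 and 0.397 in GSI and 0.359 and 0.247 after washout, also without overlap (exact permutation p = 0.333). The ratio of Foxo3 to Foxo1 was 4.39 and 5.95 in GSI and 2.90 and 4.80 after washout and overlapped (exact permutation p = 0.667), so a different size of decrease for these 2 genes was not shown.

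The summed RPKM of the 3 Foxo genes was 57.9 and 59.8 in GSI and 31.9 and 36.5 after washout. Foxo3 held 60.7% and 62.8% of that sum in GSI and 43.4% and 48.7% after washout. Foxo4 held 25.4% and 26.6% in GSI and 41.7% and 41.1% after washout. Foxo1 kept a share between 10.2% and 15.0% in all 4 libraries. The alignment capped the length of introns it could span, and Foxo1 and Foxo3 stretch over long genomic distances with 3 and 5 blocks of exon, so comparisons of level between genes are less sure than those of 1 gene between libraries.

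**Figure D2:**
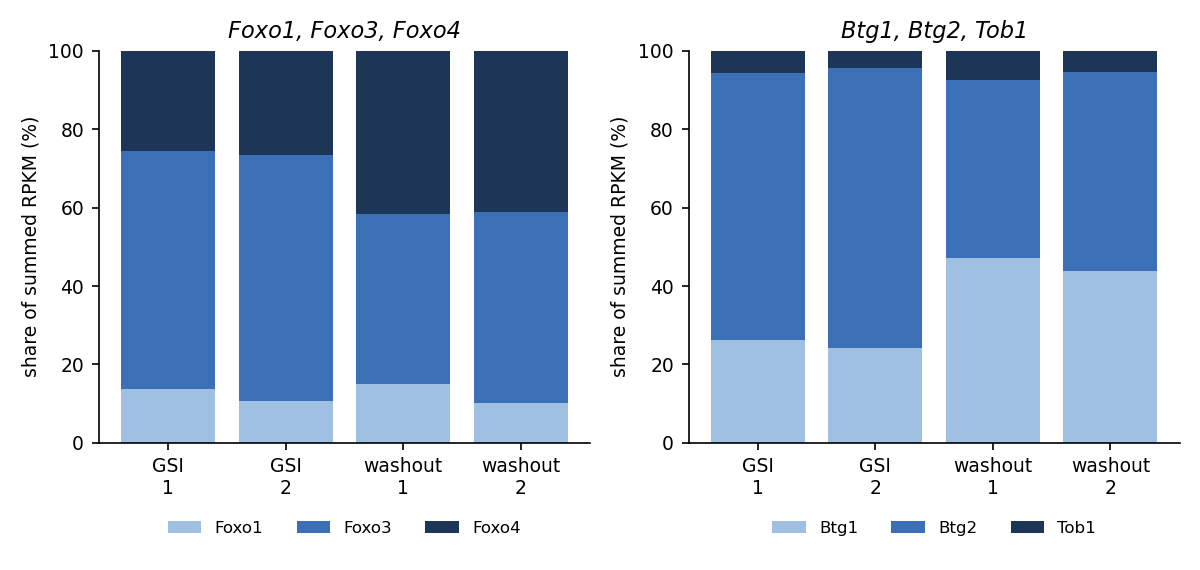
Share of summed RPKM held by each gene within the Foxo group and within the BTG/TOB group, in percent, with 1 stacked bar per library. Foxo3 goes from 60.7% and 62.8% in GSI to 43.4% and 48.7% after washout while Foxo4 grows, and Btg2 goes from 68.0% and 71.5% to 45.4% and 50.7% while Btg1 grows.

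Klf2 lies on chromosome 8 from 74842932 to 74845555 on the plus strand (mm9). It had 94 and 33 counts in GSI and 5 and 4 after washout, or 2.94 and 2.26 against 0.147 and 0.298 CPM. Both washout libraries were far below both GSI libraries, and both were close to the 3 counts that a count of 0 allows. On the log2 scale the fold change was -3.71 (SE 0.458, 95% interval -4.82 to -2.60, edgeR adjusted p = 0.00127), the 40th lowest of the 12266 genes tested. The washout value rests on 9 counts in all, and without washout replicate 1 Klf2 was at -3.11. A filter asking for 10 counts in every library removed the gene. Klf2 was rare in both conditions, with 1.59 and 1.23 RPKM in GSI and 0.0795 and 0.161 RPKM after washout.

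The genes whose pattern was most like that of Klf2, by the root mean square distance of centred log2 CPM over the 4 libraries, were Dnajc22 (distance 0.072), Sema6c (0.117) and Il2rb (0.149). Dnajc22, which encodes a DnaJ protein, was at 2.03 and 1.65 CPM in GSI and had 3 counts in each washout library, at the limit of detection. Sema6c, a transmembrane semaphorin, was at 11.5 and 11.2 CPM in GSI and 0.940 and 1.64 CPM after washout. Il2rb, the β chain of the receptors for interleukins 2 and 15, was at 6.13 and 3.91 CPM in GSI and 0.441 and 0.670 CPM after washout. Likeness over 4 libraries is a description of level only.

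S1pr1, the receptor downstream of Klf2, lies on chromosome 3 from 115413351 to 115417973 on the minus strand (mm9). It had 5 counts in GSI replicate 1 (0.156 CPM) and 0 in GSI replicate 2, washout replicate 1 and washout replicate 2. At these depths a level of up to 0.206, 0.0881 and 0.223 CPM cannot be seen in those 3 libraries, so no difference was detectable. The gene did not pass the filter on low counts and was given neither a fold nor a test. Klf2 and S1pr1 were the 2 genes of the 8 with the least RNA in both conditions.

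Btg2 was the most abundant of the 8 genes in GSI. Btg2, which is also known as a p53 target, lies on chromosome 1 from 135971747 to 135975697 on the minus strand (mm9). It had 20881 and 11150 counts in GSI and 4168 and 2034 after washout, or 652.6 and 764.2 against 122.5 and 151.4 CPM. The 2 GSI libraries stood far above the 2 washout libraries, each pair close together. The log2 fold change was -2.37 (SE 0.154, 95% interval -2.75 to -2.00, edgeR adjusted p = 0.000325), the 259th lowest of all genes tested.

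Btg1, which is highly expressed in resting lymphocytes, lies on chromosome 10 from 96079635 to 96085447 on the plus strand (mm9). It had 14771 and 6879 counts in GSI and 7887 and 3210 after washout, or 461.7 and 471.5 against 231.7 and 238.9 CPM. Replicates were nearly equal and the groups were well apart. Its log2 fold change was -0.99 (SE 0.0982, 95% interval -1.23 to -0.75, edgeR adjusted p = 0.00067). It lay at the edge of the stricter threshold and passed it under 7 alternatives, with values from -1.0 for thinned counts to -1.19 for scaling to total counts.

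Tob1, a BTG/TOB member with a long tail that binds poly(A)-binding protein, is known to restrain T-cell proliferation. It lies on chromosome 11 from 94072768 to 94076809 on the plus strand (mm9). It had 1441 and 562 counts in GSI and 577 and 186 after washout, or 45.0 and 38.5 against 17.0 and 13.8 CPM. Both washout values were below both GSI values. The fit gave a log2 fold change of -1.43 (SE 0.150, 95% interval -1.79 to -1.07, edgeR adjusted p = 0.00078).

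**Figure D3:**
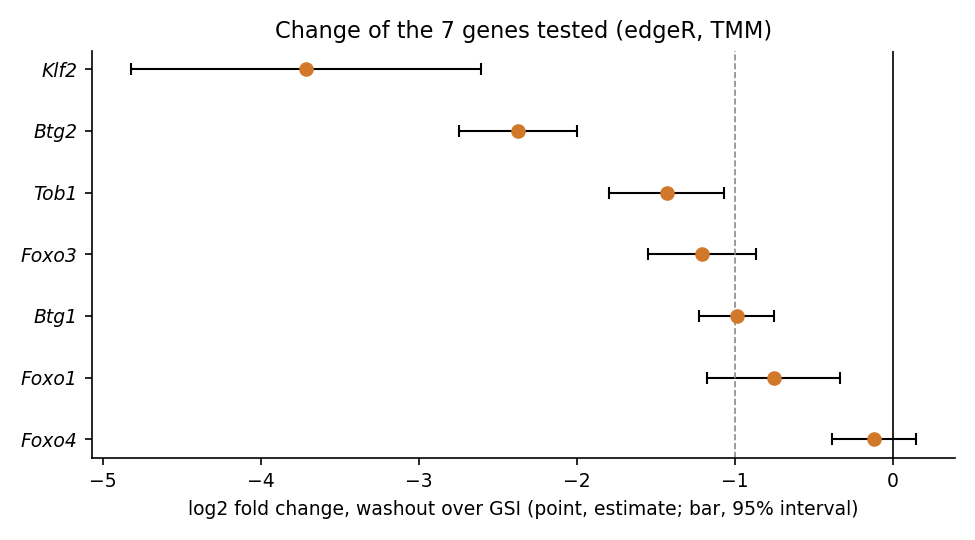
Log2 fold change of washout over GSI for the 7 tested genes, with bars for the 95% interval of edgeR's fit, a line at 0 and a dashed line at -1. Foxo4 is the gene whose interval (-0.38 to 0.15) includes 0, and Klf2 has the lowest value and the widest interval (-4.82 to -2.60).

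Per length, Btg2 stood at 258.3, Btg1 at 93.1 and Tob1 at 18.3 RPKM in GSI, as means of 2 libraries with no overlap between genes. After washout Btg2 (44.6 and 55.2 RPKM) and Btg1 (46.3 and 47.7 RPKM) overlapped, and Tob1 was at 7.41 and 6.05 RPKM. The ratio of Btg2 to Btg1 RPKM was 2.58 and 2.96 in the GSI libraries and 0.965 and 1.16 in the washout libraries. The ratio of Tob1 to Btg1 was 0.214 and 0.179 in GSI and 0.160 and 0.127 after washout. Neither ratio overlapped between conditions, and both had the smallest p that the exact permutation test allows, 0.333. The summed level of the 3 genes was 349.7 and 389.6 RPKM in GSI and 98.3 and 108.9 RPKM after washout. Btg2 held 68.0% and 71.5% of it in GSI and 45.4% and 50.7% after washout, while Tob1 held between 4.32% and 7.54% in all libraries.

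Across all 8 genes the order of mean RPKM in GSI was Btg2, Btg1, Foxo3, Tob1, Foxo4, Foxo1, Klf2 and S1pr1. Neighbours in that order did not overlap in GSI, although with the length of the longest transcript in place of the summed exons Foxo4 (16.2 and 17.6 RPKM) and Tob1 (19.7 and 16.8 RPKM) did. After washout the order was Btg2, Btg1, Foxo3, Foxo4, Tob1, Foxo1, Klf2 and S1pr1. Btg2 overlapped Btg1 and Foxo3 overlapped Foxo4, and the other neighbours did not overlap. Tob1 and Foxo4 changed places. Their RPKM ratio was 1.33 and 1.06 in the GSI libraries and 0.558 and 0.403 in the washout libraries (exact permutation p = 0.333).

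The remaining genes of the pathways were read from 6 lists that hold none of the 8 genes. Their counts stand beside the 25.4% of all genes tested that were lower and the 27.0% that were higher. The list upstream of Foxo held genes of PI3K, Akt, mTORC2 and 14-3-3 signaling, of Foxo protein turnover, and also Stk3, Stk4, Sirt1, Crebbp and Ep300. Of its 33 genes 31 were tested. Of these 10 were lower and 5 higher at the adjusted p, with a median log2 fold change of 0.03. Akt1 (log2 fold change 0.03, edgeR adjusted p = 0.783) and Akt2 (0.25, adjusted p = 0.0514), the kinases that phosphorylate Foxo, were not called, although Akt2 was called higher under 5 alternatives and Akt1 under 2, the GC and length correction without and with a replicate block. Inpp5d, which encodes the phosphatase SHIP-1, fell by 1.64 on the log2 scale (edgeR adjusted p = 0.000343). Pik3cd, the p110δ catalytic subunit of lymphocytes, fell by 2.01 (edgeR adjusted p = 0.0277). Without GSI replicate 2 Pik3cd was at -1.58 (adjusted p = 0.0802), without washout replicate 1 at -1.21 (adjusted p = 0.057) and without washout replicate 2 at -2.94, so both its size and its call depended on single libraries. Pik3cg (-1.17), Pik3r5 (-0.58) and Rictor (-0.48), further genes of the PI3K and mTORC2 complexes upstream of Akt, also fell (edgeR adjusted p = 0.00363, 0.00719 and 0.00842). These 3 genes were chosen after their values were seen. Of the other listed genes of these complexes, Pik3r1 fell (-0.34, edgeR adjusted p = 0.0221) and Mapkap1 rose (0.51, edgeR adjusted p = 0.00463). Pik3ca (-0.06), Pik3cb (-0.09), Pik3r2 (0.12), Mlst8 (0.08) and Mtor (-0.0048) were not called. Skp2, the ubiquitin ligase subunit that targets Foxo1, went from 40.7 and 53.2 to 120.3 and 116.2 CPM (log2 fold change 1.34, edgeR adjusted p = 0.000788), and Ywhaq, which encodes the 14-3-3 protein θ, rose by 0.69 (edgeR adjusted p = 0.00381).

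Of 33 genes known as targets of Foxo factors or Klf2, 31 were tested, 22 were lower and 2 higher, with a median log2 fold change of -1.0. The list was not split by whether these factors raise or lower a gene, and whether they account for the decreases was not tested. Ccng2, a cyclin linked to cell cycle arrest, went from 109.2 and 131.2 to 36.0 and 49.7 CPM (log2 fold change -1.5, edgeR adjusted p = 0.00111). Cdkn1b, the CDK inhibitor p27, fell by 0.82 on the log2 scale (edgeR adjusted p = 0.00201). Bcl2l11, which encodes the proapoptotic protein BIM, went from 214.7 and 166.8 to 99.7 and 91.2 CPM (log2 fold change -1.0, edgeR adjusted p = 0.00203). Pik3ip1, an inhibitor of PI3K, fell by 2.08 (edgeR adjusted p = 0.000389), and overlaps Gm12592 on the other strand. Txnip, an arrestin-domain protein that limits glucose uptake, had the largest decrease of the list, from 1719 and 1426 to 143.6 and 115.3 CPM (log2 fold change -3.60, edgeR adjusted p = 0.000281), and its exons overlap Gm15441 on the other strand. Gadd45b, a stress-induced gene, fell by 2.66 (edgeR adjusted p = 0.0014).

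Among the targets of T-cell survival and homing that are reported here, Il7r was not called, Ccr7 was not tested and Cd69 fell. Il7r, the α chain of the interleukin 7 receptor, was at 25.4 and 28.0 CPM in GSI and at 31.6 and 27.2 CPM after washout (log2 fold change 0.15, edgeR adjusted p = 0.373). The value of Il7r was negative when libraries were scaled to total counts or corrected for GC content and length, so it had no direction here. Ccr7, a lymph node homing receptor, had at most 3 counts in a library and was not tested. Cd69, which retains lymphocytes by pulling S1pr1 from the surface, was at 7.97 and 5.07 CPM in GSI and at 1.03 and 2.60 CPM after washout (log2 fold change -1.98, edgeR adjusted p = 0.0141). Without GSI replicate 1 Cd69 was at -1.59 with an adjusted p of 0.0657, and without washout replicate 1 or 2 it was at -1.34 or -2.66.

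The 2 targets that rose were Rag2 and Sod2. Rag2, a subunit of the V(D)J recombinase, had a log2 fold change of 0.64 (edgeR adjusted p = 0.0297), which was not called without GSI replicate 1 (adjusted p = 0.157), without washout replicate 2 (0.0554), under scaling to total counts (0.0859) or after the GC and length correction (0.213). Rag2 shares exon sequence with B230118H07Rik on the other strand. Its partner Rag1 had a log2 fold change of 0.37 (edgeR adjusted p = 0.139) and was called higher under 5 alternatives. Sod2, the mitochondrial superoxide dismutase, rose by 0.57 (edgeR adjusted p = 0.00295).

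**Figure D4:**
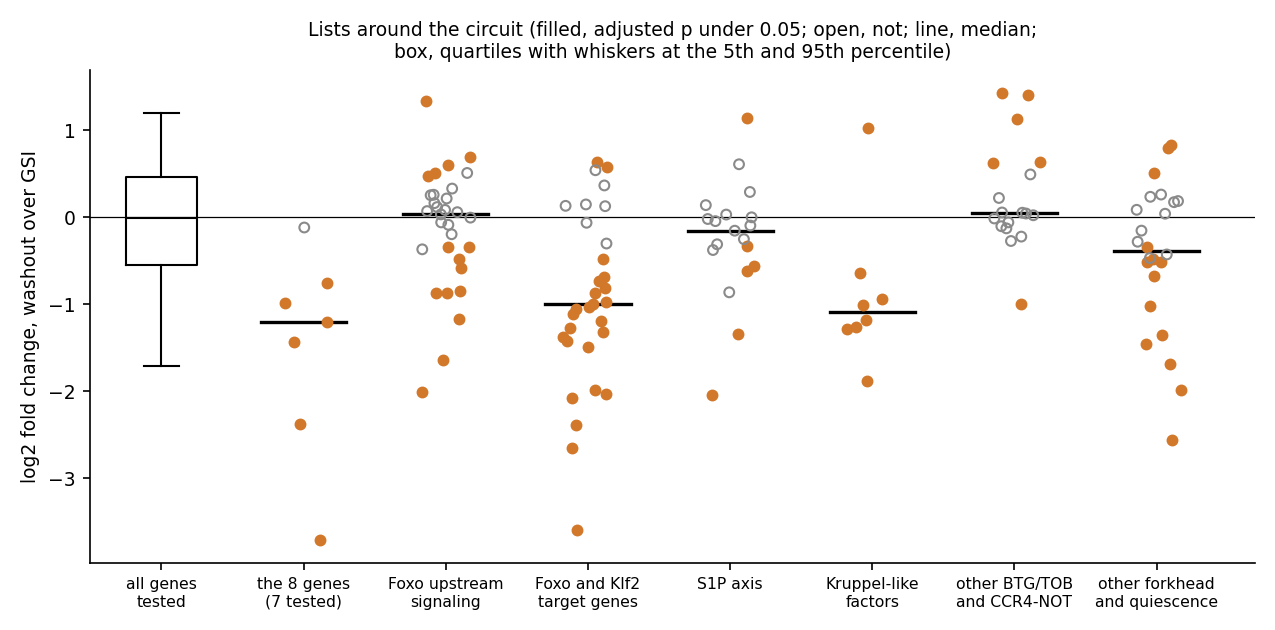
Log2 fold change of washout over GSI for every tested gene of the 8 genes and of the 6 lists, with 1 point per gene (filled where the adjusted p was under 0.05), a line at each median, and a box for all genes tested. The medians of the Foxo and Klf2 targets (-1.0) and of the other Kruppel-like factors (-1.09) lie well below 0, and those of the upstream genes (0.03) and of the CCR4-NOT list (0.05) lie near it.

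Other Kruppel-like factors were mostly lower as well. Of 16 genes 8 were tested, of which 7 were lower and 1 higher, with a median log2 fold change of -1.09. Klf10, a factor induced by TGF-β, went from 231.4 and 201.5 to 62.3 and 55.3 CPM (log2 fold change -1.88, edgeR adjusted p = 0.000315). Klf11, its close relative, fell by 1.28 on the log2 scale (edgeR adjusted p = 0.00123). Klf3, a repressor, fell by 1.01 (edgeR adjusted p = 0.000982) and Klf13 by 0.64 (edgeR adjusted p = 0.003). Klf16 was the factor that rose, from 25.1 and 23.9 to 48.6 and 51.0 CPM (log2 fold change 1.02, edgeR adjusted p = 0.000707).

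Along the sphingosine 1-phosphate axis, 19 of 21 genes were tested, 5 were lower and 1 higher, with a median log2 fold change of -0.15. S1pr4, a receptor of hematopoietic cells, was at 5.56 and 5.28 CPM in GSI and at 0.940 and 1.86 CPM after washout (log2 fold change -2.05, edgeR adjusted p = 0.00471). S1pr2, a receptor that inhibits migration, was at 23.6 and 29.0 CPM in GSI and at 15.5 and 20.2 CPM after washout (log2 fold change -0.56, edgeR adjusted p = 0.0381). Without GSI replicate 2 the adjusted p of S1pr2 was 0.187, without washout replicate 1 it was 0.132, and after the GC and length correction it was 0.0558. S1pr5 was not called (log2 fold change -0.86, edgeR adjusted p = 0.272; -1.57 without washout replicate 2) and S1pr3 was at 0 in all libraries, so S1pr2 was the receptor of this family with the most counts. The enzymes that make and break down the ligand gave no call, with log2 fold changes of -0.10 for Sphk1, 0.03 for Sphk2 and -0.15 for the lyase Sgpl1 (edgeR adjusted p = 0.87, 0.825 and 0.388). Sphk2 overlaps Dbp and Rpl18 on the other strand, and it was called higher after the GC and length correction (0.30, adjusted p = 0.0241). Ppap2b, a lipid phosphatase that also degrades the ligand, fell by 1.35 on the log2 scale (edgeR adjusted p = 0.00194). Spns2, an exporter of the ligand, rose by 1.14 (edgeR adjusted p = 0.0357) on 19 and 8 against 42 and 18 counts. The call for Spns2 was absent without any 1 of the 4 libraries (adjusted p from 0.124 to 0.168), in DESeq2 (0.221) and with total counts (0.0637), and Spns2 overlaps Mybbp1a on the other strand.

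Partners of the BTG/TOB proteins were read next. The list held 19 genes, the other BTG/TOB members, CCR4-NOT and PAN subunits, poly(A)-binding proteins and Prmt1. Of these 18 were tested, 1 was lower and 5 were higher, with a median log2 fold change of 0.05. Btg3 (log2 fold change -0.01, edgeR adjusted p = 0.934) and Tob2 (-0.22, adjusted p = 0.329), the nearest relatives, were not called, with Tob2 called lower under 3 alternatives and Btg3 under 1 (-0.25 with the GC and length correction and a replicate block), and Btg4 had no counts. Cnot7 and Cnot8, the deadenylase subunits that BTG/TOB proteins bind, had log2 fold changes of 0.49 and -0.13 (edgeR adjusted p = 0.0816 and 0.279). Cnot7 was called higher under 7 alternatives and Cnot8 lower under 2, and Cnot7 overlaps Zdhhc2 on the other strand. Cnot6l, a second kind of deadenylase subunit, fell by 0.99 on the log2 scale (edgeR adjusted p = 0.00522). Pabpc4, a poly(A)-binding protein, went from 101.7 and 103.6 to 286.0 and 267.8 CPM (log2 fold change 1.43, edgeR adjusted p = 0.000334). Prmt1, an arginine methyltransferase that binds Btg1 and Btg2, went from 63.1 and 69.0 to 177.0 and 173.1 CPM (log2 fold change 1.41, edgeR adjusted p = 0.000343).

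Of 26 other forkhead genes and regulators of quiescence, 24 were tested, 11 were lower and 3 higher, with a median log2 fold change of -0.39 (-0.16 after the GC and length correction). Foxo6, the last Foxo gene, had at most 1.19 CPM and was not called (log2 fold change -0.43, edgeR adjusted p = 0.467; -1.20 without washout replicate 1). Foxp1, a forkhead factor that maintains naive T-cell quiescence, had a log2 fold change of -0.28 (edgeR adjusted p = 0.0532) and was called lower under 6 alternatives. Cdkn1a, the CDK inhibitor p21, went from 118.1 and 124.3 to 22.2 and 18.5 CPM (log2 fold change -2.56, edgeR adjusted p = 0.000281). The gene listed as 4632428N05Rik, which encodes the checkpoint receptor VISTA, fell by 1.99 (edgeR adjusted p = 0.000281). Foxk2, a forkhead factor of another class, and Ndrg1, a stress-responsive gene linked to T-cell anergy, rose by 0.79 and 0.83 (edgeR adjusted p = 0.00378 and 0.00897). Ndrg1 overlaps Gm17035 and Gm2895 on the other strand.

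**Figure D5:**
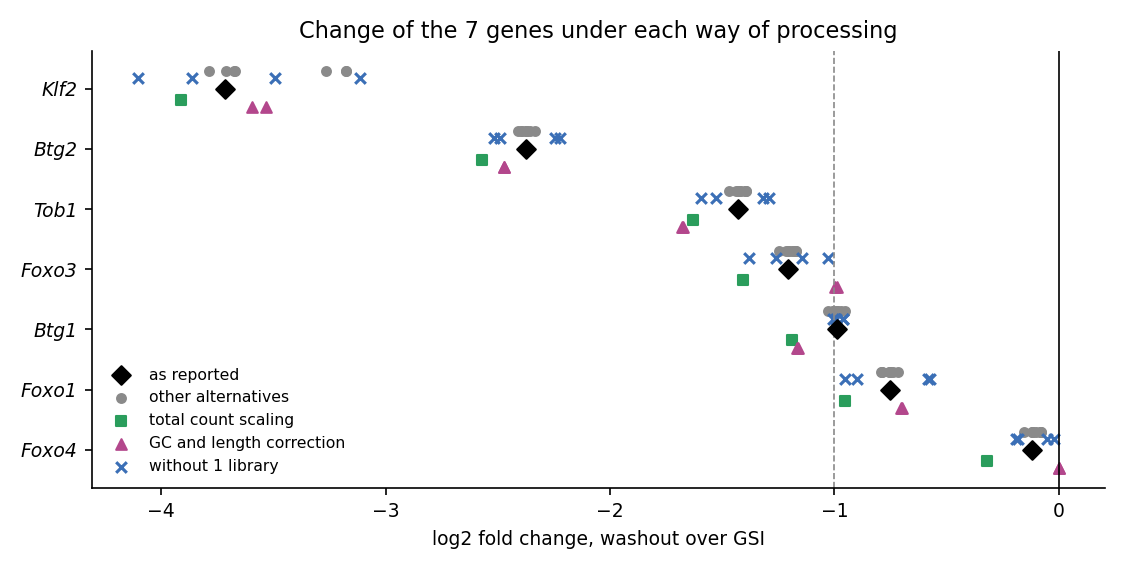
Log2 fold change of the 7 tested genes as reported (diamond) and under each alternative setting (other symbols, by kind of setting), with a dashed line at -1. Foxo1 ranges from -0.95 to -0.57, Foxo3 from -1.41 to -0.99, Klf2 from -4.11 to -3.11, Tob1 from -1.68 to -1.29, Btg1 from -1.19 to -0.95 and Btg2 from -2.57 to -2.22, all below 0, and Foxo4 from -0.32 to about 0.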

How the data were processed

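RNA-Seq libraries of Beko cells were made from ribosomal RNA-depleted total RNA with a stranded kit. After trimming, the authors mapped reads to mm9 with HISAT2 (version 2.2.1 in the submitters' processing notes) and counted them per gene with summarizeOverlaps. Whether the counting used strand is not given in the sources used here. What was deposited is a table of unnormalized counts, with 1 column for each of the 4 libraries, all of them used. The submitters' notes also name DESeq2 1.24.0.

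Counts were compared in R 4.3.3 with edgeR 4.0.16 (filterByExpr, TMM factors, quasi-likelihood test, no covariates), with Benjamini-Hochberg adjustment over 12266 genes (biological coefficient of variation 0.121). Standard errors were derived from the log2 fold change and its F statistic. The script was tested on simulated counts for this comparison. Of 200 genes changed by 1.5 on the log2 scale, up and down in equal number, 170 were recovered. Beside these 170 calls there were 16 false calls, with 12135 genes tested. The simulation changed far fewer genes than the data, where 3120 were lower and 3315 higher. It therefore does not check the scaling between libraries in such a case.

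Positions and exon lengths came from GENCODE vM1 on the same build, which matched 20641 of 24391 symbols. Promoters were RefSeq's. The 8 genes, the lists and the tests were chosen with earlier results of these data known. Genes named beyond the 8 were a fixed set of family members and targets, the 2 largest rises and 2 largest falls among called genes of each list, and the 3 genes nearest to the called gene with the largest decrease. PI3K and mTORC2 genes outside this rule were added after their values were seen. Some genes chosen by this rule are not reported here, although the counts of the lists include them. Alternatives were DESeq2 1.42.0, other scalings and filters, thinning, a GC and length correction (mgcv 1.9.3, available for 89.4% of genes tested), a prior count of 2, glmTreat, a replicate block, and leaving out each library. A leave-one-out fit leaves 1 library in a group, which is assumed to vary like the other group.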

Additional observations from a re-analysis of the deposited data

How the results depend on the processing

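All 6 genes that fell (Foxo1, Foxo3, Klf2, Tob1, Btg1 and Btg2) kept their direction under every alternative that gave a value, and all but Foxo1 kept the call at the adjusted p. The number of the 8 genes called lower was 6 in most settings, 7 with total counts, 5 with at least 10 counts in every library, which removed Klf2, and 5 to 6 when a library was left out. Past both thresholds it was 3 with glmTreat and otherwise 4 or 5. Replicate numbers are shared between the groups, but nothing in the labels ties same-numbered libraries. Across the genes tested, the deviations of same-numbered libraries from their group means correlated at 0.497. With 2 libraries per group both pairs give this same value. With the replicate number as a block 4216 genes were lower and 4243 higher, and no call among the 8 genes changed. Depth limits Klf2 and S1pr1 most, since a count of 0 allows up to 0.223 CPM.

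Scaling to total counts gave 4250 genes lower and 2315 higher at the adjusted p, and 1963 lower and 586 higher past both thresholds, against 1437 and 950. Leaving out 1 library gave 2028 to 2815 genes lower and 2202 to 3334 higher at the adjusted p, the lowest both without GSI replicate 1. The upstream list had 8 genes higher with no filter, 10 with the replicate block, 9 with thinning and the block, 10 with the GC and length correction and 15 with that and the block, and 3 to 7 higher and 6 to 10 lower without 1 library (6 without GSI replicate 2, 3 without GSI replicate 1). The target list had 1 higher with total counts or the GC and length correction, 4 with no filter, with the block and with thinning and the block, and 1 to 3 without 1 library. The sphingosine 1-phosphate list had 0 higher in DESeq2, with total counts and with the filter of 10 counts, 2 with the GC and length correction, 3 with that and the block, and 0 to 1 higher and 3 to 5 lower without 1 library. The CCR4-NOT list had 4 lower with total counts, 3 with the block, with thinning and the block and with the GC and length correction, 5 with that and the block, and 1 to 2 without 1 library. The other forkhead list had 5 higher with thinning and the block, 8 with the GC and length correction with or without the block, and 6 to 11 lower without 1 library. These counts stand beside those of all genes tested, 3315 of 12266 higher and 3120 lower here. The numbers higher and lower were 3828 and 3374 of 17049 genes with no filter, and 4243 and 4216 of 12266 with the block. They were 4052 and 4073 of 11920 with thinning and the block. With the GC and length correction they were 3246 and 3018 of 10962, and 3957 and 3905 with that and the block. Whether the lists moved more than all genes was not tested. List medians moved as well. With total counts they were -0.167 for the upstream, -1.2 for the target, -0.355 for the sphingosine 1-phosphate, -1.29 for the Kruppel-like, -0.152 for the CCR4-NOT and -0.587 for the other forkhead list. With the GC and length correction the sphingosine 1-phosphate list was at -0.069, the CCR4-NOT list at -0.051 and the other forkhead list at -0.159. The cause of these shifts was not tested.

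Genes near 0 changed sign. With the GC and length correction, without and with the replicate block, the log2 fold change was 9.3e-05 and 5.5e-07 for Foxo4, -0.127 and -0.113 for Il7r and 0.221 and 0.239 for Sphk1. Akt1 (0.293) and Sphk2 (0.302) were called higher with that correction, and Btg3 (-0.25) lower with it and the block. With total counts the log2 fold change was -0.052 for Il7r, -0.167 for Akt1 and -0.169 for Sphk2. With at least 10 counts it was -0.0055 for Akt1 and -0.0077 for Sphk2. For Btg3 it was 0.0025 in DESeq2 and 0.022 with no filter. Leaving out 1 library gave -0.083 to 0.063 for Btg3, -0.445 to 0.0015 for Tob2, -0.31 to 0.071 for Sphk1 and -0.038 to 0.121 for Sphk2.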
